A study of Mus musculus with 6 samples.

Results

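Glial scar proteoglycans, tenascins and CD44 were examined as 10 genes, chosen by name from the 55357 genes of a mouse astrocyte RNA-seq table: the lecticans Ncan, Bcan, Vcan and Acan, the link protein gene Hapln1, the transmembrane proteoglycan genes Cspg5 and Ptprz1, the tenascins Tnc and Tnr, and the receptor gene Cd44. All 10 were found in the table, each once, and 9 passed the filter for testing. The cultures were cortical astrocytes from C57BL/6 embryos, kept according to the supplemental methods in a medium with the growth factor HB-EGF. In 3 cultures (KE, genotype K499E in the labels) a plasmid drove FLAG-tagged BRAF carrying the K499E substitution from the CMV promoter, and the RNA was taken 48 hours after transfection. The other 3 cultures (NT, naive) received no plasmid. BRAF is a kinase of the RAS/ERK pathway, and K499E (KE) is a substitution found in RASopathy. Cultures that received an empty plasmid or wild-type BRAF were not analysed here, so an effect of transfection and an effect of BRAF KE cannot be told apart. The share of cells that took up the plasmid was not given in the sources used here, and nothing in them says whether the cultures of a group came from separate dissections. P-values therefore measure only the spread between these cultures, which may be technical.

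In the adult brain these genes encode much of the matrix around astrocytes and synapses. Lecticans are chondroitin sulfate proteoglycans that bind the long sugar hyaluronan at one end and tenascins at the other, and link proteins such as that of Hapln1 hold lectican and hyaluronan together. After injury, reactive astrocytes raise several of them in the glial scar, a dense border that hinders the regrowth of axons. CD44 is the main cell-surface receptor for hyaluronan and marks reactive and fibrous astrocytes.

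The values are gene counts that the authors divided by a size factor per culture, called normalized counts here. Braf, the transfected gene, checked the labels: its lowest KE value was 36.9 times its highest NT value. Approximate depth was 24500000 reads in KE replicate 2 and 29500000 to 34100000 in the other 5 cultures, so low genes are least precise in KE replicate 2. The labelled cell type was checked with 10 astrocyte markers. Of these, 9 had at least 3004 normalized counts in every culture, and S100b had 11.8 to 31.5. The highest were Slc1a3 (a glutamate transporter, log2FC 0.25) and Glul (glutamine synthetase, 0.38), which rose in KE. So did 5 other markers, while 1 fell and 2 were not called. By the test described below, 80.0% of the 10 markers were called, against 51.3% of all tested genes. With quantile normalization Slc1a3 was not called (0.09, adjusted p = 0.209 from limma). The summed level of the 10 markers was 194523 to 200354 normalized counts in KE and 142105 to 150693 in NT.

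Expressed per kb of the canonical transcript, so that genes of different length can be compared, the 10 genes spanned a wide range. Tnc, the tenascin of developing and injured tissue, was highest in both groups, with 5318 ± 98.2 (SD, n = 3) normalized counts per kb in NT and 4802 ± 248 (SD, n = 3) in KE. In NT it was followed by Cd44 (2531 ± 35.8 per kb) and Ptprz1 (2494 ± 71.5), whose ranges over cultures overlapped, then by Bcan (2033 ± 57.1). Ncan (1683 ± 123) and Cspg5 (1570 ± 69.9) came next in NT and also overlapped. Vcan was lower, at 290 ± 13.7 per kb, and Tnr (94.7 ± 18.0), Hapln1 (13.5 ± 4.95) and Acan (1.59 ± 0.397) closed the order without overlap between neighbours. In KE, Cspg5 moved from the sixth to the third place with 2534 ± 103 per kb, below Cd44 with 4220 ± 285, while Ptprz1 moved from the third to the fifth with 1902 ± 115. Bcan (2172 ± 243) and Ptprz1 overlapped in KE. With the length of all annotated exons in place of the canonical transcript, the first 2 places and the last 4 were kept in both groups. Between them, only Bcan and Ncan changed places in NT. In KE, Ncan moved ahead of Cspg5, Bcan and Ptprz1. Among all 15280 tested genes, the mean level of Tnc, not corrected for length, ranked 59, that of Ptprz1 127 and that of Cd44 146, whereas Hapln1 ranked 12597.

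**Figure D1:**
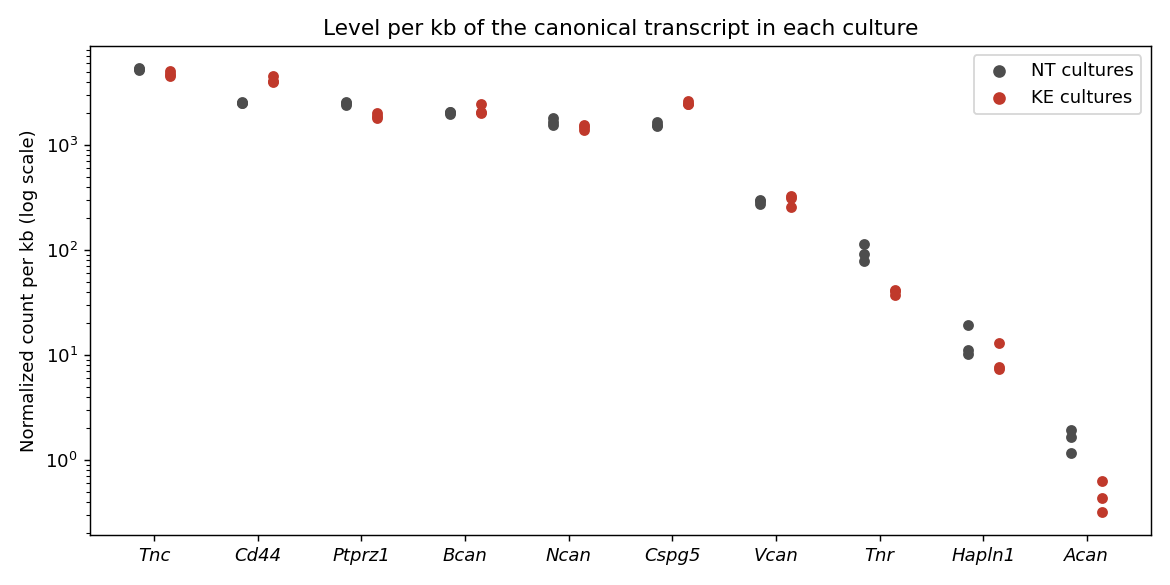
Normalized counts per kb of canonical transcript (log axis) of the 10 genes, ordered by their NT mean, with 1 point for each NT culture and each KE culture. Tnc was highest in both groups, and Acan lowest, with means of 1.59 per kb in NT and 0.464 in KE.

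In the comparison of KE with NT, 2 of the 9 tested genes, Cd44 and Cspg5, were upregulated, and 3, Tnr, Ptprz1 and Ncan, were downregulated, while Bcan, Vcan, Tnc and Hapln1 were not called. The test was limma on log2(normalized count + 1), with an adjusted p-value under 0.05 over all 15280 tested genes. It called 51.3% of all tested genes, 25.3% upward and 26.0% downward, so 5 of 9 (55.6%) is near the background. The median log2FC was -0.15 over the 9 genes and 0.00 over all tested genes, and the median absolute log2FC was 0.39 and 0.30. In 6 of the 9 tested genes the groups were fully apart, with all KE values higher in 2 and lower in 4, against 59.9% of all tested genes (30.1% higher and 29.9% lower). The sum of all 10 genes was 110018 ± 4347 (SD, n = 3) normalized counts in KE and 107706 ± 1447 in NT, with overlapping cultures, so the members differed in direction while their sum lay within the spread. The filter on a mean of at least 10 normalized counts removed Acan.

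**Figure D2:**
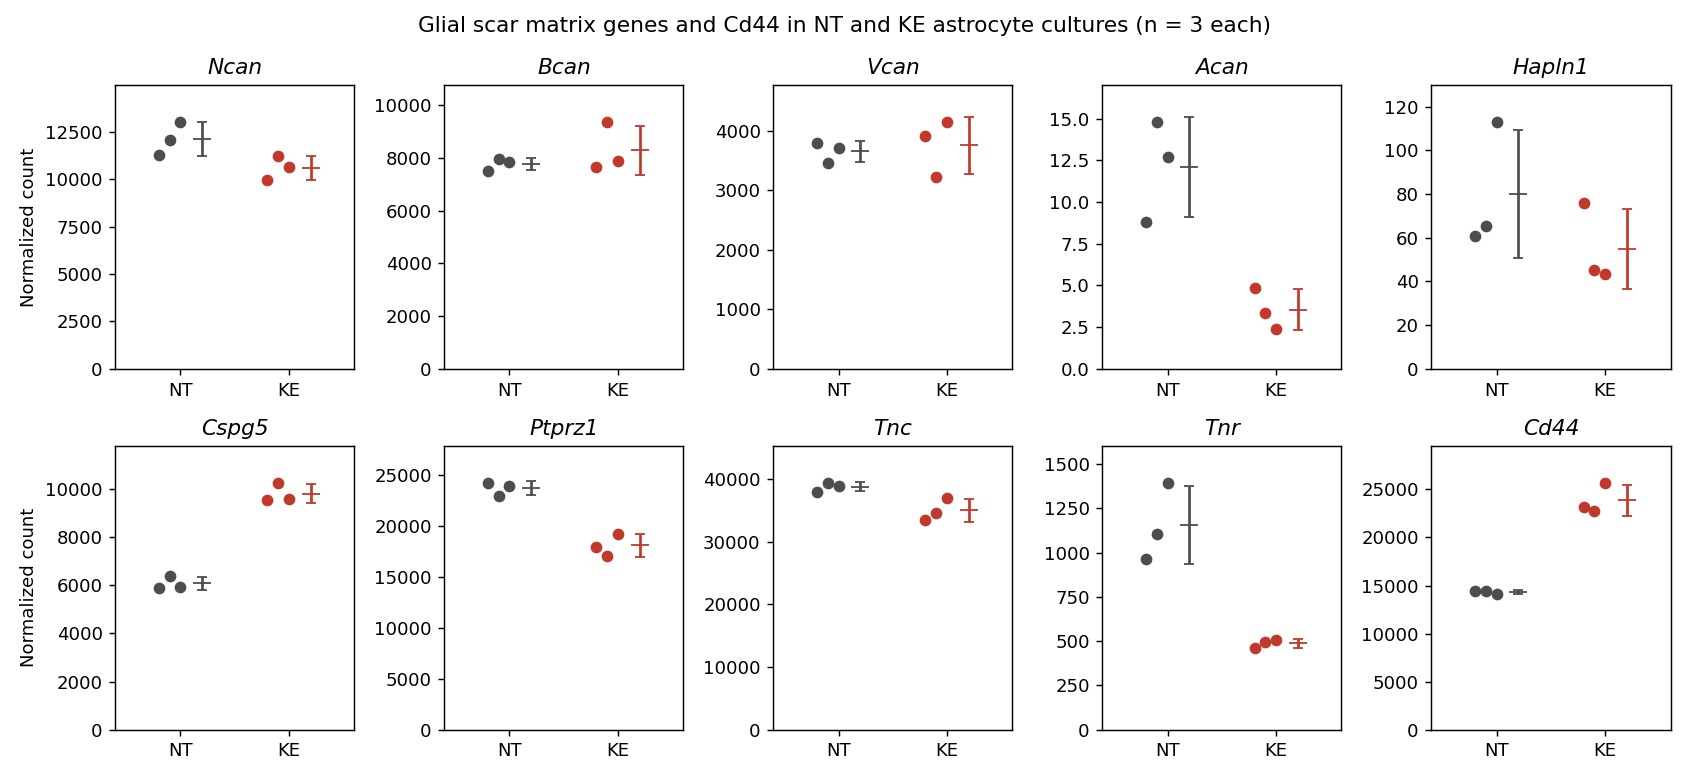
Normalized counts of each of the 10 genes by culture (y axes start at 0 and differ between panels), with points for the cultures and a bar for mean ± SD beside them. KE and NT points are fully apart for Cd44, Cspg5, Ptprz1, Tnr, Tnc, Ncan and Acan, and interleave for Bcan, Vcan and Hapln1.

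Cd44 (ENSMUSG00000005087; chromosome 2, minus strand, 102641486 to 102732010, as all positions of genes in GRCm39) encodes the hyaluronan receptor. It reached 23159, 22715 and 25698 normalized counts in KE, against 14386, 14468 and 14084 in NT. Every KE value was above every NT value, and the NT cultures lay within a spread of 1.41% (SD over mean) against 6.74% in KE. Cd44 rose 1.66-fold, with a log2FC of 0.74 (95% confidence interval 0.60 to 0.87, adjusted p = 2.5e-06 from limma). The table gives 1 value per gene and does not separate the many CD44 splice forms. The per-kb ratio of Cd44 to Tnc went from 0.476 ± 0.0110 (SD, n = 3) in NT to 0.878 ± 0.0287 in KE, and its ratio to Ncan from 1.51 ± 0.126 to 2.87 ± 0.260.

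Cspg5 (ENSMUSG00000032482; chromosome 9, plus strand, 110072851 to 110091644) encodes neuroglycan C, a membrane-spanning chondroitin sulfate proteoglycan with an EGF-like module that is made by neurons and glia. It measured 9559, 10267 and 9599 normalized counts in KE and 5893, 6387 and 5950 in NT. The lowest KE culture was well above the highest NT culture. The increase was 1.61-fold, a log2FC of 0.69 (95% confidence interval 0.56 to 0.82, adjusted p = 2.5e-06 from limma). Ptprz1 (ENSMUSG00000068748; chromosome 6, plus strand, 22875358 to 23054236), the other transmembrane proteoglycan of the list, is a receptor tyrosine phosphatase whose secreted form is phosphacan. It moved the other way, with 17978, 17058 and 19241 normalized counts in KE and 24249, 22956 and 23968 in NT. All KE values lay below all NT values, a log2FC of -0.39 (95% confidence interval -0.53 to -0.26, adjusted p = 2.9e-04 from limma), or 1.31-fold lower. The per-kb ratio of Cspg5 to Ptprz1 was accordingly 0.630 ± 0.0467 (SD, n = 3) in NT and 1.34 ± 0.129 in KE with canonical transcript lengths. The order of the pair depends on the length used. Per kb of all annotated exons, Cspg5 was above Ptprz1 only in KE replicate 2 (1019 against 910 normalized counts), and below it in KE replicate 1 (949 against 959), KE replicate 3 (953 against 1026) and all 3 NT cultures.

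The tenascins are large hexabrachion or trimeric glycoproteins that bind lecticans. Tnr (ENSMUSG00000015829; chromosome 1, plus strand, 159351339 to 159759299) encodes tenascin-R, a component of perineuronal nets made mostly by oligodendrocyte lineage cells and some neurons. Tnr stood at 460, 498 and 509 normalized counts in KE and at 964, 1108 and 1395 in NT. The KE cultures were close together, the NT cultures were spread over 19.0% (SD over mean), and the groups were far apart. With a log2FC of -1.22 (95% confidence interval -1.49 to -0.96, adjusted p = 9.3e-06 from limma), or 2.34-fold lower, Tnr had the largest change of the 9 tested genes, larger than that of 92.1% of all tested genes. Tnc (ENSMUSG00000028364; chromosome 4, minus strand, 63878014 to 63965443), encoding tenascin-C, gave 33454, 34691 and 37014 in KE and 38042, 39455 and 38960 in NT. Each KE value was lower than each NT value, but by little. The log2FC was -0.15 (95% confidence interval -0.28 to -0.02) and the adjusted p of 0.0605 from limma missed the threshold, so the direction is given by the cultures but was not called. Tnc was called in 3 of 14 alternatives: quantile normalization (adjusted p = 0.0300 from limma), the replicate number as a block (0.0384) and leaving out KE replicate 3 (0.0264). Tenascin-R made up 1.75% ± 0.313 (SD, n = 3) of the 2 tenascins per kb in NT and 0.827% ± 0.0208 in KE.

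**Figure D3:**
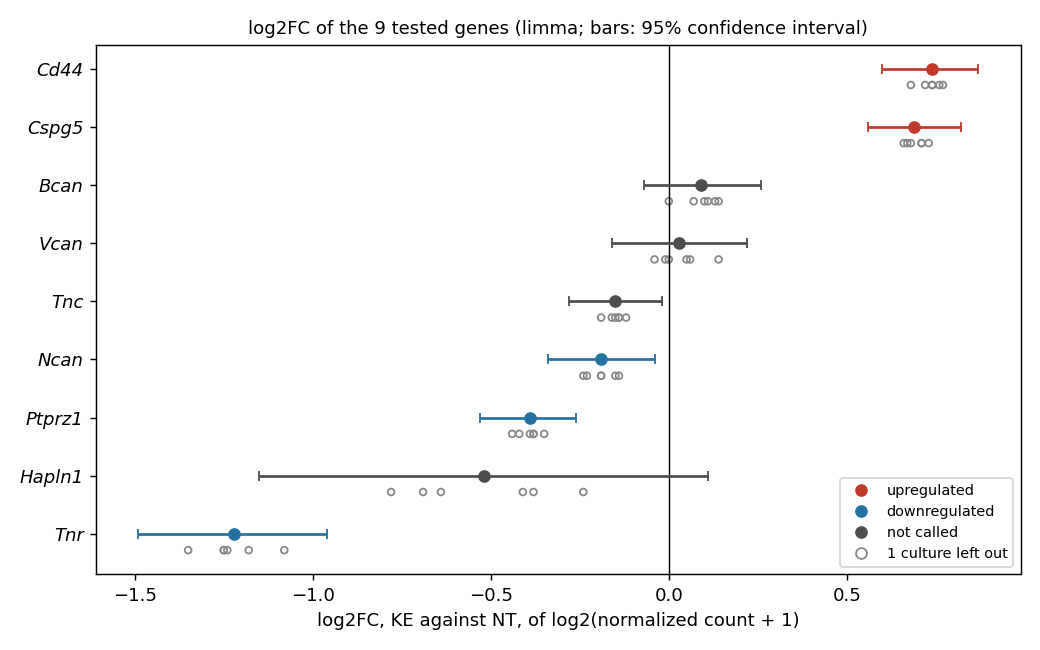
log2FC (KE against NT) of the 9 tested genes with 95% confidence intervals from limma, and open circles for the log2FC with 1 culture left out in turn. Cd44 (0.74) and Cspg5 (0.69) stand on the right and Tnr (-1.22) on the far left, and the circles of Vcan fall on both sides of 0.

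Among the lecticans, which share a hyaluronan-binding start and a tenascin-binding end, the changes of the 3 tested ones were small, unlike that of the barely detected Acan. Ncan (ENSMUSG00000002341; chromosome 8, minus strand, 70538926 to 70573523), encoding the brain-specific neurocan, had normalized counts of 9964, 11225 and 10642 in KE and 11256, 12060 and 13018 in NT. The highest KE culture was just below the lowest NT culture. The log2FC was -0.19 (95% confidence interval -0.34 to -0.04, adjusted p = 0.0370 from limma), a call that was lost in 6 of 14 alternative settings, for example with no filter on low genes (adjusted p = 0.0506, range 0.0140 to 0.146 over the alternatives) and without KE replicate 1, KE replicate 3, NT replicate 2 or NT replicate 3 (adjusted p = 0.143, 0.0702, 0.0748 and 0.146). Bcan (ENSMUSG00000004892; chromosome 3, minus strand, 87894835 to 87910177), encoding brevican of the adult brain, was 7654, 9355 and 7861 in KE and 7514, 7935 and 7824 in NT. The groups overlapped, with KE replicate 2 the highest of the 6, and a log2FC of 0.09 (95% confidence interval -0.07 to 0.26), which was 0.00 without that culture. Vcan (ENSMUSG00000021614; chromosome 13, minus strand, 89803431 to 89890814), encoding versican, which is made by oligodendrocyte precursors and connective tissue as well as by astrocytes, was 3907, 3226 and 4148 in KE and 3791, 3462 and 3714 in NT. Its values interleaved, with KE replicate 2 the lowest of the 6, and the interval of its log2FC, from -0.16 to 0.22, allows a change of up to 1.17-fold upward.

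Acan (ENSMUSG00000030607; chromosome 7, plus strand, 78702964 to 78764847) encodes aggrecan, the lectican of cartilage and perineuronal nets. It was listed at 4.86, 3.34 and 2.42 normalized counts in KE and 8.80, 14.8 and 12.7 in NT, a few reads per culture. Every KE value was lower, but its mean was under the filter, so it was not among the 9 tested genes. Only with no filter was a fold change fitted (log2FC -1.54, adjusted p = 0.0216 from limma). Weighted per kb of canonical transcript, the lectican pool of NT was 50.8% ± 1.23 (SD, n = 3) Bcan, 42.0% ± 1.42 Ncan, 7.24% ± 0.533 Vcan and 0.0394% ± 0.00897 Acan. In KE the share of Ncan was 37.4% ± 0.842, below every NT culture, and that of Bcan 55.0% ± 2.20, above every NT culture. Which of the pair is the larger depends on the length used. Per kb of all annotated exons, Ncan was above Bcan, with 1211 ± 88.3 (SD, n = 3) against 903 ± 25.4 in NT and 1061 ± 63.1 against 965 ± 108 in KE. With canonical lengths, the lectican pool as a whole was 4008 ± 162 (SD, n = 3) per kb in NT and 3946 ± 291 in KE, with overlapping cultures.

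Hapln1 (ENSMUSG00000021613; chromosome 13, plus strand, 89686581 to 89759950), which encodes the link protein that clamps lecticans to hyaluronan, was low, at 76.0, 45.4 and 43.3 normalized counts in KE and 60.7, 65.4 and 113 in NT. KE replicate 1 was above 2 of the NT cultures. The log2FC of -0.52 had an interval from -1.15 to 0.11, so that neither a fall to 0.449-fold nor no change lies outside it. With 1 culture left out it ran from -0.78 (adjusted p = 0.0534 from limma, without KE replicate 1) to -0.24 (adjusted p = 0.494, without NT replicate 3), and it was called in none of the 14 alternatives.

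The lectican genes share a feature of position that the choice of genes did not use. Each lies next to a link protein gene, with 0 protein-coding genes between them in Gencode vM39 (GRCm39). Vcan and Hapln1 are 43480 bases apart on opposite strands, Bcan and Hapln2 16622 bases apart on the same strand, Acan and Hapln3 2 bases apart on opposite strands, and Ncan and Hapln4 overlap by 4608 bases on opposite strands. The link genes did not share the level of their neighbours. Hapln2 was listed at 0 in all 3 NT cultures and at 0, 1.25 and 1.81 in KE. Hapln3 was 56.4, 32.6 and 21.5 in KE and 54.0, 77.4 and 93.5 in NT, with overlap in KE replicate 1, and fell by 1.08 on the log2 scale (adjusted p = 0.0191 from limma). That call was lost without the variance trend (adjusted p = 0.0593) and without KE replicate 2 (0.0524), KE replicate 3 (0.0756) or NT replicate 3 (0.0642). Hapln4 rose, with 252, 352 and 324 in KE and 178, 140 and 205 in NT (log2FC 0.83, adjusted p = 0.00172 from limma), while Ncan across from it did not. The exons of Ncan and Hapln4 share 1255 bases on opposite strands, and Ncan is far higher, so the Hapln4 value is uncertain if the counting did not use strand, which the sources used here do not give for a kit that marks it.

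The upstream sequences of 3 of these genes are shown because Cd44 had the largest rise and Tnr the largest fall of the 9 tested genes, and Tnc was the highest (the first of its 2 listed starts). They are the 250 bases before the start of the gene in RefSeq on GRCm38.p6, 5′ to 3′ on the strand of the gene, with matches to the searched motifs in capitals. Cspg5 is named only.

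Cd44 promoter, chr2:102901666-102901915, minus strand: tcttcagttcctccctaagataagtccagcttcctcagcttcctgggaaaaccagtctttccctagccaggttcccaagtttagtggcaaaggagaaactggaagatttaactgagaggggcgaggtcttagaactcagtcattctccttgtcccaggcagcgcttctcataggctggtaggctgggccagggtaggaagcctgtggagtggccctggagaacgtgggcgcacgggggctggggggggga
Tnr promoter, chr1:159523519-159523768, plus strand: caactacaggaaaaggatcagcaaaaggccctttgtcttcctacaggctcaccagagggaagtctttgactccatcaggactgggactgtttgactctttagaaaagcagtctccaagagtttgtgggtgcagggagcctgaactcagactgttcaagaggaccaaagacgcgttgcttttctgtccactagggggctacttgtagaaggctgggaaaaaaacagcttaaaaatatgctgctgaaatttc
Tnc promoter, chr4:64047016-64047265, minus strand: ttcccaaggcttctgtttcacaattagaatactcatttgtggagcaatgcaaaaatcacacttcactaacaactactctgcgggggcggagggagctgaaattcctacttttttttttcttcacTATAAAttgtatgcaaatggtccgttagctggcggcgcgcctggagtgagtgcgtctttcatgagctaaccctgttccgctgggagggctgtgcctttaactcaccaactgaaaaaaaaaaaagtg

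Short motifs were searched on both strands of the 32851 listed promoter windows of the same length. The AP-1 motif, searched as TGANTCA, occurs in 6.7% of them. The core bound by ETS factors, the end points of ERK signalling, was searched as CCGGAA and occurs in 3952 of the windows. The motif of STAT factors, which act in reactive astrocytes, was searched as TTCNNNGAA and occurs in 7.0%. The interferon-stimulated response element, searched as GAAA followed after any 2 bases by the same 4 letters, occurs in 3.0%. The TATA box was searched as TATAAA and occurs in 12.4%. In the windows of the 9 members with an entry, the first 4 motifs were not found, and TATAAA was found in Tnc, beginning 126 bases before the first start, and on the other strand in Ncan, beginning 11 bases before it. The GC content of the window was 56.4% for Cd44, 46.8% for Tnr and 71.6% for Ptprz1, against a median of 52.4% over all windows. A match is a description only, and no match says only that these letters are not in this window.

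Genes that build, bind or cut this matrix were described as 7 lists. Among 11 tested genes of link proteins and hyaluronan metabolism, 5 rose and 3 fell (72.7% called, against 51.3% of all tested genes), with a median log2FC of 0.48 beside 0.00 for all tested genes. Has2, the main hyaluronan synthase, was 389, 406 and 427 in KE and 212, 174 and 131 in NT, and rose by 1.27 on the log2 scale (adjusted p = 6.3e-05 from limma). Hyal1, a lysosomal hyaluronidase, had a log2FC of 0.99, and Cemip, which starts the breakdown of extracellular hyaluronan and was the highest of the list, one of 0.48. Other genes of these roles did not follow: Cemip2, a relative of Cemip, fell (log2FC -0.29, adjusted p = 0.00425 from limma), and the hyaluronidase gene Hyal2 (-0.16) and the low synthase gene Has3 (0.74) were not called, Has3 being called only without KE replicate 2 (1.25, adjusted p = 0.0220). Hmmr, a hyaluronan-binding protein of the mitotic spindle, fell (log2FC -0.75). Has1 was listed at 0 in all 6 cultures. Cemip2, Hyal2, Hyal3 and Has3 were named after their values were seen, and Hyal3 was not set against the alternatives.

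For chondroitin sulfate synthesis, which builds the sugar chains carried by the lecticans, Cspg5 and Ptprz1, 11 of 22 tested genes fell and 3 rose (63.6% called, against 51.3% of all tested genes), with a median log2FC of -0.25. Both xylosyltransferases that start the chain fell, Xylt1 with a log2FC of -0.37 and Xylt2 with one of -0.57. The largest falls were those of Ust, which sulfates uronic acid in the chain (-0.96), and Chsy3, a chain polymerase (-0.75). The polymerizing partners Chpf (0.78) and Chpf2 (0.37) rose, as did B3gat3 (0.49), which completes the linker. Chst11, the sulfotransferase of the highest level, was not called, at 7978 ± 427 (SD, n = 3) normalized counts in KE and 7595 ± 466 in NT. Xylt1, Xylt2 and Chpf2 were named after their values were seen.

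Of 10 tested receptors for proteoglycans and tenascins, 0 rose and 5 fell, with a median log2FC of -0.27. With 5 of 10 called, the list is near the share of all tested genes (51.3%, of which 26.0% downward). At an unadjusted p under 0.05, also in limma, 0 were higher in KE, and no other tool was run. Among those with a mean of at least 50, the largest falls were those of Itga9 (log2FC -0.85), an integrin subunit that binds tenascin-C, and Itga8 (-0.66). Ptprs, the receptor phosphatase that binds chondroitin sulfate, was not called (log2FC 0.08), nor was Itgb1, the highest of the list (-0.15, adjusted p = 0.0673 from limma), though Itgb1 was called with quantile normalization (0.0173), with the replicate number as a block (0.0220) and without NT replicate 2 (0.0368). Ptprs was named after its value was seen.

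Among 8 ligands of PTPRZ1 and partners of CD44, 5 rose and 2 fell (87.5% called, against 51.3% of all tested genes). Ezr, encoding ezrin, which ties CD44 to the actin cytoskeleton, measured 22262, 21582 and 22376 in KE and 8031, 10202 and 9159 in NT (log2FC 1.28, adjusted p = 2.6e-07 from limma), while its relative Rdx fell (log2FC -0.36). Spp1, encoding the CD44 ligand osteopontin and the highest of this list, rose from 73792 ± 3822 (SD, n = 3) to 115404 ± 1807 (log2FC 0.65). Of the PTPRZ1 ligands, Il34 (0.90) and Mdk, encoding midkine (0.31, adjusted p = 0.0201 from limma), rose, and Ptn, encoding pleiotrophin, fell (-0.22, adjusted p = 0.0205). Neither Mdk nor Ptn was called without the variance trend (adjusted p = 0.0708 and 0.0735). The call of Mdk was also lost without KE replicate 2 (0.0764) or NT replicate 1 (0.0819), and that of Ptn without KE replicate 3 (0.0742), NT replicate 1 (0.0790) or NT replicate 3 (0.0527). Mdk was named after its value was seen.

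The list of proteases that cut lecticans, which also holds the inhibitor gene Timp3, was split. Of its 8 tested genes, 3 were called upward and 4 downward (87.5% called, against 51.3%). The gene not called was Timp3 (log2FC 0.29, adjusted p = 0.0650 from limma). Adamts1 was 11142, 12193 and 13055 in KE and 6872, 7007 and 6187 in NT (log2FC 0.86, adjusted p = 2.7e-06 from limma), and Adamts4, the classical aggrecanase, rose by a log2FC of 0.40. The low genes Adamts20 (log2FC -1.98) and Adamts8 (-1.22) fell. So did Adamts9 (-0.39), which had a mean of 2307 normalized counts. Timp3 and Adamts9 were named after their values were seen and were not set against the alternatives. Of 12 other chondroitin or dermatan sulfate proteoglycans and tenascins, 4 rose and 7 fell (91.7% called). Srgn, the proteoglycan of blood and microglial granules, fell by 1.85 on the log2 scale, and Fmod by 1.36. Esm1 (2.92) and the tenascin gene Tnxb (2.20) rose from low levels. Tnn, encoding tenascin-N and the highest of that list, fell from 797 ± 89.5 (SD, n = 3) to 572 ± 40.5 (log2FC -0.47). Of the 12 heparan sulfate proteoglycans, 4 rose and 4 fell (66.7% called), with Sdc4 (0.58) and Agrn (0.56) rising and Gpc3 (-1.17) and Hspg2 (-0.38) falling. The list medians for the ADAMTS, the other proteoglycans and the heparan sulfate proteoglycans were -0.05, -0.45 and -0.01, and the list median for ligands and partners was 0.32.

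**Figure D4:**
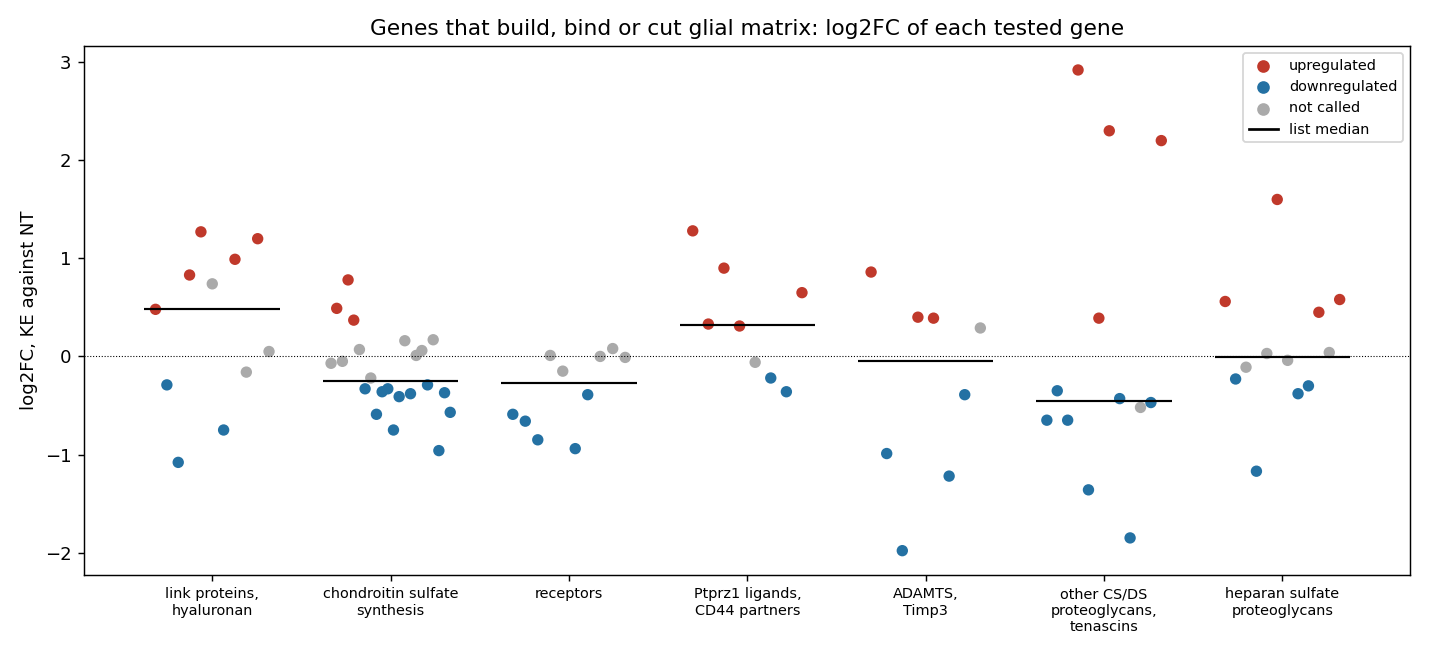
log2FC (KE against NT) of every tested gene of 7 lists related to the glial matrix, with colours for the limma call and a line at the list median. The receptor column holds no red point, with 0 of 10 called upward, and the list medians run from -0.45 to 0.48.

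These are whole cultures, in which fewer cells of a type and less RNA per cell cannot be told apart. Several of the genes are also expressed by other cells, whose markers moved between the groups. Of all tested genes, 51.3% were called, 25.3% upward and 26.0% downward. All 6 oligodendrocyte precursor markers fell, with a median log2FC of -0.53. Their summed level was 26883 to 31701 normalized counts in KE and 35365 to 35838 in NT. Gpr17 (log2FC -1.33) and Pdgfra (-0.87) fell most. Both were named after their values were seen and were not set against the alternatives. The highest in level were Olig1, which fell least (-0.20), and Olig2 (-0.55). The call of Olig1 was lost without the variance trend (adjusted p = 0.0877 from limma) and without KE replicate 1 (0.111), KE replicate 3 (0.102), NT replicate 1 (0.0677), NT replicate 2 (0.0730) or NT replicate 3 (0.0606). These cells make Tnr, Ptprz1 and Ncan, which fell, but also Cspg5, which rose, and Vcan and Bcan, which were not called. All 12 microglia and macrophage markers fell, with a median log2FC of -3.34 and a summed level of 4677 to 6278 in KE and 37719 to 44362 in NT, among them C1qa (-3.12). Macrophages also express Cd44, which rose. Of the 5 tested markers of mature oligodendrocytes 3 fell and 1 rose (80.0% called), with sums of 2954 to 3213 in KE and 2685 to 2930 in NT. Among them Cnp (0.38) was highest, and Mbp fell by 1.89 on the log2 scale. Of the 7 tested neuronal markers 2 rose and 1 fell (42.9% called, below the share of all tested genes). Their sums were 1939 to 2113 in KE and 1686 to 2166 in NT, Stmn2 (-0.58) and Tubb3 (0.43) being the highest. Of the 10 tested fibroblast and vascular markers 3 rose and 4 fell (70.0% called), with sums of 3150 to 3294 in KE and 3665 to 4772 in NT. Of these markers, Acta2 fell by 1.34 and Col3a1 by 0.59 on the log2 scale. The call of Col3a1 was lost without the variance trend (adjusted p = 0.0887 from limma) and without KE replicate 2 (0.0779), KE replicate 3 (0.0781) or NT replicate 2 (0.0726). No marker on these lists was at 0 in all 6 cultures. Their part in the changes of the matrix genes was not tested.

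Over the 6 cultures, the profiles of several genes followed the division into groups. The gene most like Cd44 was Ttc39b (Pearson's r of 0.999 over the 6 cultures), and 1353 of the 12071 other genes with a mean of at least 100 reached an r of 0.95 with it. For Cspg5 the closest was Pnpla2 (0.999), for Ptprz1 it was Hpf1 (0.998) and for Tnr it was Nup188 (0.999). Ncan (Fam81a, 0.992), Tnc (Metap1, 0.994), Bcan (Slc25a39, 0.993), Vcan (Oxr1, 0.984) and Hapln1 (Adnp, 0.971) had between 8 and 101 genes at an r of 0.95. Cultures of a group share their treatment, so these r values describe the 6 cultures only.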

How the data were processed

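RNA-seq of cultured mouse cortical astrocytes was compared between 3 BRAF KE–transfected and 3 nontransfected cultures, grouped by the sample labels. The authors deposited a normalized signal, gene counts from Salmon (fractions of reads included) divided by a DESeq2 size factor per culture. The labels' processing notes name Trim Galore, STAR, Salmon and the build GRCh38, whereas the supplemental methods give GRCm39 with Gencode for mouse, in a paragraph that also mentions an unnamed batch adjustment. Of 55357 mouse identifiers, 54749 were found in Gencode vM39 (GRCm39), used here for positions and lengths, and RefSeq promoters are on GRCm38.p6.

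Normalization removes the sequencing depth, which was approximated by dividing a culture's total by its most common small value. Only 74.7% to 77.6% of small values were within 0.1 of a multiple of that value, so reads were not recovered, no count test was run, and precision rests on the spread between cultures. The 15280 genes with a mean of at least 10 were put on the scale log2(normalized count + 1) and tested in R 4.3.3 with limma 3.58.1, using a variance trend and group as the only factor. Tests are two-sided, with Benjamini-Hochberg adjustment over all tested genes. The exact permutation test of 3 cultures against 3 cannot reach 0.05 and was not used. The fit was tested on simulated data. Tables were made in Python 3.11.15.

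The genes and lists were chosen with earlier results of these data known. Named were all 10 genes, Braf, up to 2 of the largest called rises and falls with a mean of at least 50 and the highest gene of each list, the 2 highest genes of each marker list (1 of which is not reported here) and markers at 0, and for each tested gene the most similar profile. Hapln2, Hapln3 and Hapln4 were named for their position and S100b and Has1 for their low values. The alternatives were pseudocounts of 0.5 and 5, no filter and a mean of at least 50, quantile and 75th percentile scaling, no variance trend, the replicate number as a block, and leaving out each culture.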

Additional observations from a re-analysis of the deposited data

How the results depend on the processing

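The log2FC of the 9 tested genes and 18 counts of calls (all genes, the 10 genes and the 7 lists, by direction) were set against 14 alternatives, and in 363 of 378 such comparisons the direction and the call (for counts, the size to within 1.5 times) were unchanged. Of 53 other genes chosen for naming in the lists, 45 kept direction and call throughout, and the other 8 are given beside their values. Per-kb ratios and shares were not recomputed under these alternatives. The downregulation of Ncan was not called with no filter (log2FC -0.19, adjusted p = 0.0506 from limma) or without the variance trend (-0.19, adjusted p = 0.106), and leaving out each culture gave -0.24 to -0.14. Tnc was called with quantile normalization (-0.16, adjusted p = 0.0300) and ranged from -0.19 to -0.12 with 1 culture left out, passing without KE replicate 3 (adjusted p = 0.0264). Vcan ranged from -0.04 to 0.14 with 1 culture left out, its sign turning without KE replicate 3 or NT replicate 2. With no filter Acan had a log2FC of -1.54 (adjusted p = 0.0216). The PTPRZ1 ligands and CD44 partners had 1 downregulated gene without the trend, and 1 to 2 with 1 culture left out. The cause was not tested. Cd44 (0.68 to 0.77), Cspg5 (0.66 to 0.73), Ptprz1 (-0.45 to -0.35) and Tnr (-1.35 to -1.08) kept their calls under all 14 alternatives. The deviations of same-numbered KE and NT cultures had low r across genes (0.059, 0.066 and 0.065), each the highest of its culture. The other pairs of a KE and an NT culture had r of -0.05 to -0.01. These values do not settle whether the replicate numbers pair the cultures. With the replicate number as a block, Tnc was called (-0.15, adjusted p = 0.0384) and the other 8 tested genes of the 10 kept their calls. No scaling moved the median log2FC of all tested genes by more than 0.03. Depth limits Acan and Hapln1 most.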
